A study of Mus musculus with 18 samples.

Results

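The comparison set livers of mice given carbon tetrachloride (CCl4) together with Pien Tze Huang against livers of control mice, across all genes, to show what remained different from control under treatment. It used 12 of the 18 libraries of the series, 6 on each side, chosen by their treatment labels. Pien Tze Huang is a traditional Chinese patent medicine. The labels abbreviate it PTH, which here does not mean parathyroid hormone, so the treated group is called CCl4_PTH.

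The study began with 45 male C57BL/6 mice aged 6 weeks, 15 to a group, and 6 mice of each group were sequenced in week 22. Control mice were given distilled water by mouth every day and olive oil by intraperitoneal injection 2 times a week. CCl4_PTH mice were given Pien Tze Huang by mouth every day and CCl4 by intraperitoneal injection 2 times a week. The third group, 6 CCl4 mice given water by mouth and the same CCl4 injections, gives values set beside the comparison. Its libraries also entered the shared fit, and so bear on the gene filter, the scaling and the estimated spread. The labels call the CCl4 groups a liver cancer model and do not say whether tumour or surrounding tissue was taken. No group received Pien Tze Huang without CCl4, so its effect on uninjured liver was not measured.

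CCl4 is turned into a reactive radical mainly by Cyp2e1, a cytochrome P450 of the hepatocytes around the central vein, and those cells die first. Repeated injury activates stellate cells, the vitamin A-storing cells of the sinusoid, into matrix-producing myofibroblasts. Macrophages gather at the scar, and the surviving hepatocytes divide and lower many of their specialised genes.

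Gene counts per library ranged from 77.2 to 86.6 M (mega) counts in control and from 76.9 to 119 M counts in CCl4_PTH livers. The mean total was 103 ± 16.1 M counts (SD, n = 6) against 82.2 ± 3.14 M counts (exact permutation test, two-sided, adjusted p = 0.0361 over 5 library measures). Ribosomal RNA loci took 30.6 to 47.2% of the counts in CCl4_PTH and 32.5 to 55.8% in control livers. The library CCl4_PTH 1 stood apart from the other 5 of its group, and 39 of the 57 values set far from the rest of a group lay in it. In that mouse the acute phase and neutrophil genes were much higher and the pericentral genes lower than in the other 5, so many of the results that it touches are also given without it. Controls 1 and 8 lay below the other 4 controls in the mean level of the fatty acid oxidation list and above them in that of the lipogenesis list. Albumin (Alb), the defining hepatocyte product, ranged from 28929.9 to 42895 CPM (counts scaled by library size and TMM factor) in control and from 23673 to 31622 CPM in CCl4_PTH livers.

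Livers given CCl4 and Pien Tze Huang remained far from control. Scar matrix, macrophage, neutrophil, cell division and bile duct genes were higher, while fatty acid oxidation genes, male-biased liver genes and some pericentral enzymes were lower. Of 21840 genes tested with edgeR's quasi-likelihood test, 3798 rose (17.4%) and 2253 fell (10.3%) at an adjusted p under 0.05, together 27.7%. Beyond a 2-fold change, 2502 rose and 590 fell, and beyond a 4-fold change 1079 rose and 126 fell. The 6 libraries of one group lay wholly above or below the 6 of the other for 3160 genes (14.5%), 2989 of them past the test (13.7%). Without CCl4_PTH 1 the counts were 3526 higher and 2257 lower. In a fit of the 12 libraries alone, without the CCl4 group, 20256 genes were tested, 3494 higher and 2392 lower. In the main fit 47.4% of genes passed in CCl4 against control and 12.1% in CCl4_PTH against CCl4 (7.1% higher and 4.95% lower). The first of these 2 shares the control libraries with the main comparison.

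How the libraries are scaled bears on the balance of rises and falls. The fit used TMM factors, which set most genes near no change, and the median log2 difference over all genes was 0.04. With library sizes alone that median became 0.51, a shift of 0.48, and the share of calls that were higher went from 62.8% to 96.4% (9559 higher and 353 lower). Relative to the median of all genes, the medians of the 44 lists with 15 or more measured genes moved by at most 0.10 between both scalings, while 11 of them changed sign in absolute terms. A fall in a list median of less than the shift is therefore a fall relative to other genes. In whole tissue a gene's level also mixes cell number with RNA per cell, and fewer cells of a type cannot be told apart from less RNA per cell.

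**Figure D1:**
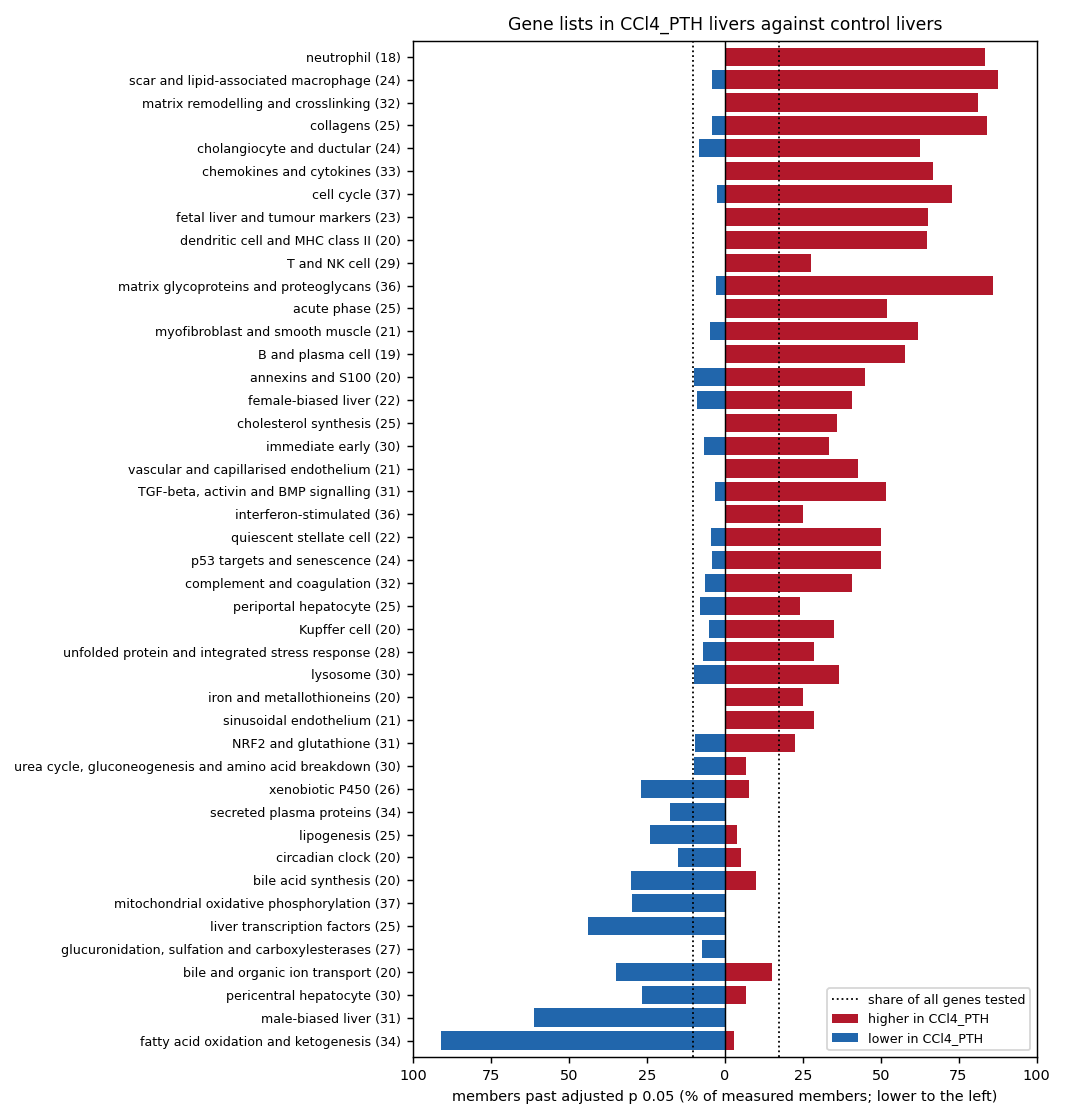
Horizontal bars give, for each of 44 gene lists with 15 or more measured genes (number in brackets), the percent of members past an adjusted p of 0.05 in CCl4_PTH against control livers, higher to the right and lower to the left, ordered by median log2 difference. Dotted lines mark the shares over all genes tested, 17.4% higher and 10.3% lower; fatty acid oxidation stands lowest with 31 of 34 lower and neutrophil genes stand at the top with 15 of 18 higher.

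Scar matrix genes rose in most of their members. Of 25 measured collagens 21 rose and 1 fell (median log2 1.79), of 36 matrix glycoproteins and proteoglycans 31 rose and 1 fell (median 1.39), and of 32 remodelling and crosslinking genes 26 rose and none fell (median 2.07), beside a median of 0.04 over all genes. Without CCl4_PTH 1 these counts were 21, 30 and 24 higher. Col1a1, the main chain of fibrillar scar collagen (chromosome 11, 94936224 to 94953042, + strand, GRCm38), was 2.47, 6.07 and 7.74 CPM at its lowest, median and highest in control and 57.9, 103 and 268 CPM in CCl4_PTH livers. The groups did not overlap, and the difference was log2 4.52 ± 0.42 (edgeR adjusted p = 1.52e-06); in CCl4 livers the median was 131 CPM. Col3a1, the other main fibrillar chain of scars, went from 8.99, 14 and 20.5 to 81.6, 133 and 237 CPM, log2 3.28 ± 0.31 (adjusted p = 1.57e-06), with a median of 163 CPM in CCl4 livers. The highest CCl4_PTH value of both genes was in CCl4_PTH 1. The most significant collagen was Col6a1, a chain of the beaded filaments around cells, from 6.51, 8.37 and 9.09 to 24.7, 32.4 and 45.1 CPM (log2 2.09 ± 0.17, edgeR adjusted p = 1.82e-07), again with no overlap. Col27a1, a cartilage-type fibrillar collagen, was the 1 that fell (log2 -1.20 ± 0.23, adjusted p = 0.00105).

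Among the matrix glycoproteins, lumican (Lum), which organises collagen fibrils, was 2, 3.24 and 4.21 CPM in control and 18.8, 28.8 and 39.9 CPM in CCl4_PTH livers, a non-overlapping difference of log2 3.15 ± 0.24 (edgeR adjusted p = 1.09e-07). Fibrillin 1 (Fbn1), the core of microfibrils that hold latent TGF-beta, changed by log2 2.26 ± 0.18 (adjusted p = 1.23e-07). Fibrillin 2 (Fbn2), its form used in development, was at 0 in most controls with a highest value of 0.151 CPM and reached 3.96, 8.93 and 10.9 CPM (log2 7.62 ± 0.58, adjusted p = 1.59e-07, and 9.47 without control 1). Fibronectin (Fn1), which hepatocytes also secrete into plasma, did not pass (log2 0.04 ± 0.24, 95% interval -0.46 to 0.54), with or without CCl4_PTH 1. That library stood at a log2 CPM of 11.90, above the 10.18 to 10.70 of the rest of its group.

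The gelatinase Mmp2, a stellate cell protease, was the most significant remodelling gene, from 1.65, 2.27 and 3.22 CPM in control to 13.5, 21.6 and 28.5 CPM in CCl4_PTH livers (log2 3.16 ± 0.22, edgeR adjusted p = 5e-08). Adamts2, which trims fibrillar procollagen, changed by log2 1.65 ± 0.17 (adjusted p = 2.94e-06). No CCl4_PTH library overlapped a control library for either gene. The collagen crosslinking enzyme Lox was 0, 0.266 and 0.371 CPM in control and 1.13, 1.92 and 21.3 CPM in CCl4_PTH livers; its log2 4.65 ± 0.87 (adjusted p = 0.000852) became 3.23 without CCl4_PTH 1. Timp1, the inducible inhibitor of matrix proteases, went from at most 0.0463 CPM to 0.428, 0.929 and 13.8 CPM. Its difference of log2 8.19 ± 1.29 (edgeR adjusted p = 0.000219) became 6.73 without CCl4_PTH 1, where it still passed (adjusted p = 6.71e-05). The matrilysin Mmp7 had the largest rise of the genes named by size (log2 8.83 ± 1.22, adjusted p = 7.4e-05), from at most 0.0611 CPM to 1.13, 2.63 and 19.5 CPM; without CCl4_PTH 1 it was 7.73. Mmp12 and Mmp13, macrophage and interstitial proteases, also rose against control (log2 5.25 ± 0.59, adjusted p = 1.03e-05, and log2 3.03 ± 0.91, adjusted p = 0.0191), with treated medians of 10.3 and 0.908 CPM beside 55.8 and 8.36 CPM in CCl4 livers. For genes near 0 in control the size of a difference hangs on single control counts: Timp1 and Mmp13 became 11.20 and 5.76 without control 1, and Mmp7 11.91 without control 5.

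**Figure D2:**
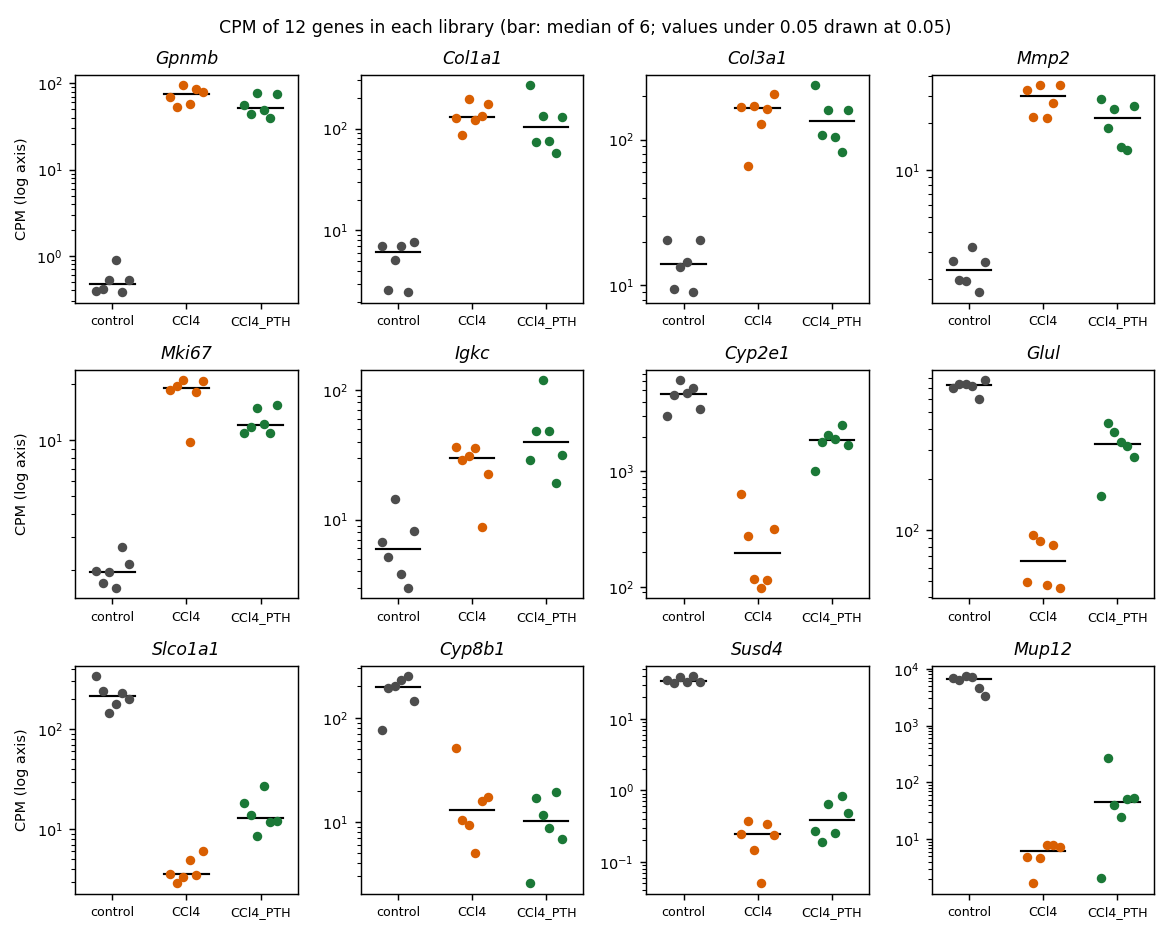
CPM on a logarithmic axis in each of the 18 libraries for 12 genes, with points coloured by group and a bar at the median of 6. Gpnmb, Col1a1, Col3a1, Mmp2, Mki67 and Igkc lie above all controls in every CCl4_PTH library; Cyp2e1, Glul, Slco1a1, Cyp8b1, Susd4 and Mup12 lie below.

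Stellate cell and myofibroblast genes rose in part. Of 22 quiescent stellate markers 11 rose and 1 fell (median log2 0.46), and of 21 myofibroblast and smooth muscle genes 13 rose and 1 fell (median 1.14). The PDGF receptors, which drive stellate cell growth, were the most significant stellate markers: Pdgfrb went from 6.61, 9.27 and 13.4 to 29.2, 35.8 and 48.7 CPM (log2 1.98 ± 0.19, edgeR adjusted p = 1.52e-06) and Pdgfra from 8.44, 8.84 and 10.1 to 21.6, 40.04 and 50.5 CPM (log2 2.03 ± 0.20, adjusted p = 1.75e-06), neither with any overlap. The intermediate filament Vim changed by log2 1.81 ± 0.23 (adjusted p = 2.52e-05). Acta2, the classical contractile marker of myofibroblasts, did not pass: it was 0.846, 1.52 and 2.56 CPM in control and 0.73, 1.77 and 10.6 CPM in CCl4_PTH livers, the highest value being that of CCl4_PTH 1 (log2 0.95 ± 0.54, adjusted p = 0.209, 95% interval -0.19 to 2.08). Without that library its difference was 0.04 (adjusted p = 0.953).

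In the TGF-beta, activin and BMP list 16 of 31 rose and 1 fell (median log2 0.53). The binding protein Ltbp2 was 0.709, 1 and 1.76 CPM in control and 14.1, 22.8 and 45.2 CPM in CCl4_PTH livers (log2 4.61 ± 0.36, edgeR adjusted p = 1.84e-07). The ligand Tgfb2 changed by log2 2.45 ± 0.28 (adjusted p = 6.59e-06). Tgfb1, the ligand that macrophages release, changed by log2 0.68 ± 0.20 (adjusted p = 0.0167) with overlapping groups, and did not pass without CCl4_PTH 8 (adjusted p = 0.0562) or without controls 1 and 8 (adjusted p = 0.0739). The BMP antagonist Grem1 had no count in any control library and 0.14 to 0.555 CPM in the CCl4_PTH libraries, at least 27.8-fold higher against a floor of 3 counts over the control group. Its highest value in CCl4 livers was 0.102 CPM, and it passed in CCl4_PTH against CCl4 as well (adjusted p = 0.0451).

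Macrophage genes of the scar type were higher in nearly every member. Of 24 scar and lipid-associated macrophage markers 21 rose and 1 fell, with a median log2 of 2.51 and the same count higher without CCl4_PTH 1. Gpnmb, a lysosomal glycoprotein of lipid-laden macrophages (chromosome 6, 49036546 to 49070929, + strand, GRCm38), was the most significant gene of the list, at 0.382, 0.47 and 0.888 CPM in control and 40.1, 52.3 and 77.2 CPM in CCl4_PTH livers (log2 6.77 ± 0.26, edgeR adjusted p = 7.9e-12). The groups did not overlap. In CCl4 livers its median was 74.6 CPM, and CCl4_PTH against CCl4 did not pass (adjusted p = 0.24). The lipoprotein lipase Lpl changed by log2 2.62 ± 0.20 (adjusted p = 8.14e-08) and Trem2, the lipid-sensing receptor of these cells, by log2 3.50 ± 0.27 (adjusted p = 1.23e-07). Lgals3, a galectin of activated macrophages, was 1.86, 2.42 and 2.54 CPM in control and 13.5, 19 and 23.2 CPM in CCl4_PTH livers (log2 3.08 ± 0.31, adjusted p = 3.11e-06). Trem2, Lgals3, Mmp12 and Lpl were each lower in CCl4_PTH than in CCl4 livers (adjusted p = 0.0077, 0.00513, 0.0077 and 0.0146), yet none of their CCl4_PTH libraries overlapped control.

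The resident Kupffer cell list split. Of 20 members 7 rose and 1 fell (median log2 0.34), and without controls 1 and 8 these counts were 2 and 2. The rises numbered 4, 3 and 4 without control 4, CCl4_PTH 2 and CCl4_PTH 8. The pan-macrophage receptor Adgre1 changed by log2 1.27 ± 0.26 (edgeR adjusted p = 0.00151), whereas the haemoglobin scavenger receptor Cd163 fell from 11.1, 14.2 and 16.7 to 1.27, 2.12 and 6.48 CPM (log2 -2.34 ± 0.32, adjusted p = 5.45e-05) with no overlap. The CCl4 median of Cd163 was 2.94 CPM. Clec4f, the receptor that defines Kupffer cells in mice, was 30.7, 47.9 and 56.3 CPM in control and 41.3, 50.4 and 58.6 CPM in CCl4_PTH livers and did not pass (log2 0.15 ± 0.12, 95% interval -0.10 to 0.40).

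Antibody-secreting cell genes were among the lymphocyte rises. Of 19 B and plasma cell genes 11 rose and none fell (median log2 1.12); the kappa constant region Igkc was 2.99, 5.98 and 14.4 CPM in control and 19.3, 39.7 and 118 CPM in CCl4_PTH livers (log2 2.84 ± 0.48, edgeR adjusted p = 0.00038), and the joining chain Jchain changed by log2 2.86 ± 0.49 (adjusted p = 0.00042). Their CCl4 medians were 30.02 and 4.81 CPM beside 39.7 and 8.6 CPM under treatment, and CCl4_PTH against CCl4 did not pass for either (adjusted p = 0.23 and 0.134). Of 29 T and NK cell genes 8 rose and none fell (median 1.44), with 5 rises without control 4, 4 without CCl4_PTH 2 and 4 without controls 1 and 8. With all libraries the share higher was 27.6%, beside 17.4% over all genes tested. Cd28, the T cell costimulatory receptor, changed by log2 2.91 ± 0.63 (adjusted p = 0.00225), and by 1.76 without CCl4_PTH 1, its highest library. The pan-T chain Cd3e did not pass (log2 1.44 ± 0.68, adjusted p = 0.128).

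Of 20 dendritic cell and MHC class II genes 13 rose (median log2 1.44), and without controls 1 and 8 the count was 5. The integrin Itgax, a dendritic cell and macrophage marker, changed by log2 2.90 ± 0.40 (edgeR adjusted p = 6.22e-05). The class II chain H2-Aa was 9.02, 12.1 and 15.2 CPM in control and 11.4, 38.9 and 63.7 CPM in CCl4_PTH livers; CCl4_PTH 1 lay within the control range, and the gene did not pass without controls 1 and 8 (adjusted p = 0.0205 and 0.0781). Of 33 chemokines and cytokines 22 rose and none fell (median 1.72). Cx3cl1, the membrane-bound chemokine for monocytes, changed by log2 2.69 ± 0.31 (adjusted p = 7e-06). The monocyte chemokine Ccl7 had no control count and was at least 103-fold higher against a floor of 3 counts over the group; its fitted log2 difference, which depends on the prior count, went from 9.13 to 8.19 without CCl4_PTH 1. Interferon-stimulated genes showed 9 of 36 higher (median 0.49), led by the antiviral synthetases Oas1a (log2 1.70 ± 0.28, adjusted p = 0.000265) and Oas2 (log2 1.54 ± 0.26, adjusted p = 0.000289). Their share higher was 25%, beside 17.4% over all genes tested.

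Acute phase and neutrophil genes rested heavily on 1 mouse. Of 25 acute phase genes, plasma proteins that hepatocytes make under inflammation, 13 rose (median log2 1.38), but without CCl4_PTH 1 the counts were 8 higher and 1 lower (median 0.41). Serum amyloid Saa2, carried on high-density lipoprotein, was 1.01, 1.29 and 2.38 CPM in control; CCl4_PTH 1 held 1017 CPM and the other 5 treated libraries 4.98 to 16.4 CPM. Its log2 6.87 ± 1.56 (edgeR adjusted p = 0.00376) became 2.61 (adjusted p = 0.0111) without that library. Lipocalin 2 (Lcn2), an iron-scavenging protein of neutrophils and injured hepatocytes, was 0.767, 1.03 and 2.13 CPM in control, 1475 CPM in CCl4_PTH 1 and 16.3 to 25.6 CPM in the other 5. Leaving out the first changed its log2 7.74 ± 1.42 (adjusted p = 0.000776) to 3.99 (adjusted p = 3.03e-05), so the other 5 were above control too. Saa3, the amyloid that macrophages and fat make, did not depend on it: 0.593, 1.17 and 2.42 CPM in control and 7.47, 12.1 and 41.5 CPM in CCl4_PTH livers (log2 3.60 ± 0.57, adjusted p = 0.000221, 3.63 without it and 3.01 without CCl4_PTH 3).

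Haptoglobin (Hp), ceruloplasmin (Cp), Serpina3n and C4b were among the 6 genes with the largest rise in mean CPM, and none passed without CCl4_PTH 1 (edgeR adjusted p = 0.0639, 0.0537, 0.839 and 0.0781; with it 0.0212, 0.0232, 0.0377 and 0.0299). C4b also did not pass without control 2, 3, 5 or 8 (adjusted p = 0.0552 to 0.0701), nor did Serpina3n without any 1 control (0.0606 to 0.0714). Hp, which binds free haemoglobin, was 10338 CPM in CCl4_PTH 1, 950.1 to 1449 CPM in the other 5 and 828 to 1032 CPM in control. Hemopexin (Hpx), its counterpart for heme, and the plasma carrier Orm1 passed either way (log2 1.54 ± 0.36 and log2 2.45 ± 0.65 with it, 0.81 and 0.80 without, adjusted p = 0.000901 and 0.00797). Neutrophil genes showed 15 of 18 higher with a median log2 of 4.89; without CCl4_PTH 1 there were 13 higher with a median of 2.80. Csf3r, the receptor for granulocyte growth factor, was 1.07, 2.08 and 3.01 CPM in control and 6.49, 7.79 and 10.7 CPM in CCl4_PTH livers (log2 2.11 ± 0.30, adjusted p = 7.42e-05). The calprotectin subunit S100a8 was 57.7 CPM in CCl4_PTH 1, 1.53 to 3.5 CPM in the other 5 and at most 0.519 CPM in control (log2 5.57, 3.04 without CCl4_PTH 1).

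**Figure D3:**
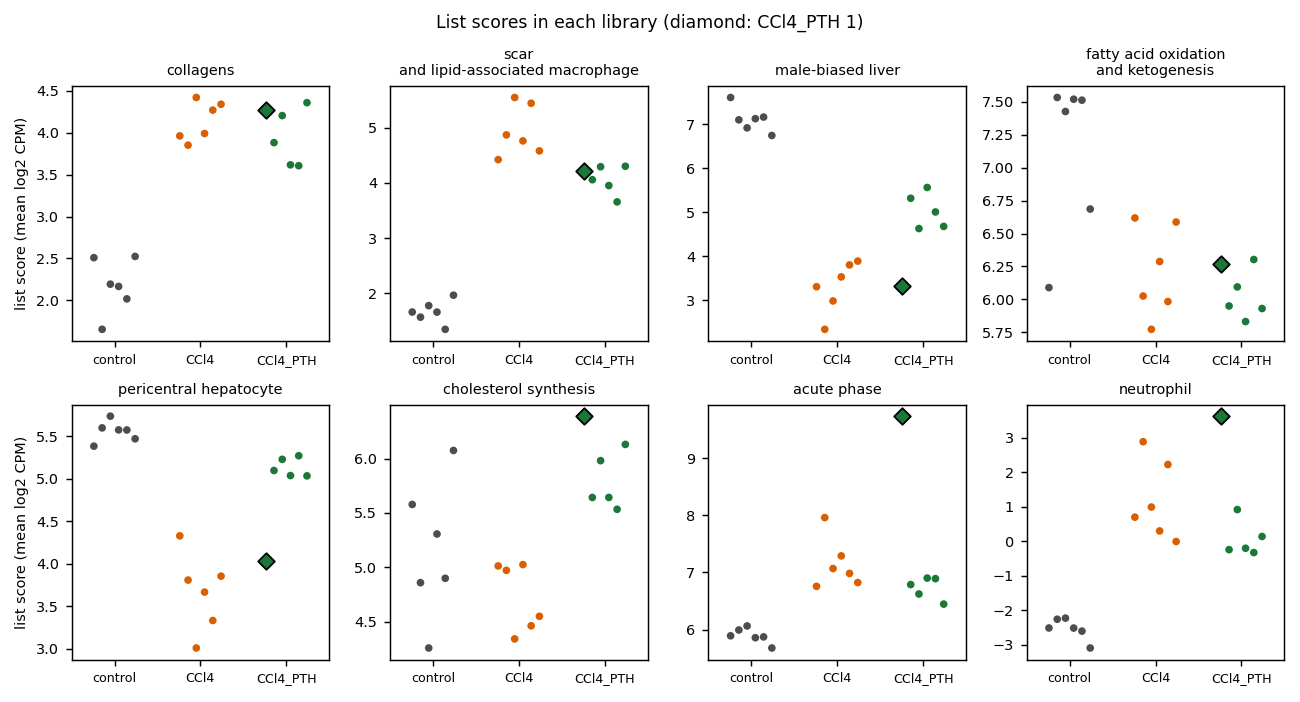
The list score (mean log2 CPM of a list's measured genes) in each of the 18 libraries for 8 lists, with CCl4_PTH 1 drawn as a diamond. Collagen and scar macrophage scores of all CCl4_PTH libraries lie above control, male-biased and pericentral scores lie below, and CCl4_PTH 1 stands at 9.73 for acute phase genes where the other 5 lie at 6.44 to 6.90. The fatty acid oxidation and cholesterol synthesis scores of CCl4_PTH and control livers overlap, with control 1 at 6.09 for fatty acid oxidation.

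Some pericentral hepatocyte genes were lower than control, and those given here were above their CCl4 level. Of 30 members 8 fell and 2 rose; the median log2 was -0.50, -0.01 with library sizes alone, where 5 rose and 4 fell, and -0.35 without CCl4_PTH 1. Cyp2e1, the P450 that activates CCl4 (chromosome 7, 140763739 to 140774987, + strand, GRCm38), was 2986, 4659 and 6108 CPM in control and 998, 1861 and 2520.2 CPM in CCl4_PTH livers (log2 -1.30 ± 0.39, edgeR adjusted p = 0.0171), without overlap. Its CCl4 median was 195 CPM, and CCl4_PTH was higher than CCl4 (log2 2.81, adjusted p = 0.000551). Glul, the glutamine synthetase of the innermost ring of hepatocytes, went from 598, 725 and 772 to 160.1, 324 and 432 CPM (log2 -1.17 ± 0.22, adjusted p = 0.000749), beside a CCl4 median of 65.4 CPM. The glutamate transporter Slc1a2 was 209, 243 and 275 CPM in control and 46.2, 93.2 and 132 CPM in CCl4_PTH livers (log2 -1.40 ± 0.37, adjusted p = 0.00842), while its highest CCl4 value was 2.36 CPM. Oat, which breaks down ornithine, was the most significant member (log2 -1.87 ± 0.26, adjusted p = 4.51e-05). Cyp2e1 and Slc1a2 did not pass with library sizes alone (adjusted p = 0.0699 and 0.0524), where both stayed lower. The Wnt target receptor Lgr5 was 5.94, 7.44 and 8.81 CPM in control and 4.44, 6.76 and 8.4 CPM in CCl4_PTH livers and did not pass (log2 -0.13 ± 0.20, 95% interval -0.56 to 0.29), with a CCl4 median of 1.8 CPM. Periportal genes showed 6 of 25 higher and 2 lower (median 0.34), and 3 higher without CCl4_PTH 1. With all libraries 24% of periportal genes were higher, beside 17.4% of all genes tested. The mitochondrial aldehyde dehydrogenase Aldh1b1 led the periportal list (log2 1.75 ± 0.35, adjusted p = 0.00131).

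Male-biased liver genes, which adult male growth hormone pulses keep high, fell as a group. Of 31 measured 19 fell and none rose, with a median log2 of -0.81, -0.98 without CCl4_PTH 1, -1.22 without CCl4_PTH 2 and -0.36 with library sizes alone. The transporter Slco1a1, which takes up bile acids and steroids, was 147, 215 and 339.9 CPM in control and 8.5, 12.9 and 27.3 CPM in CCl4_PTH livers (log2 -3.86 ± 0.28, edgeR adjusted p = 8.35e-08). The complement regulator Susd4 (chromosome 1, 182763860 to 182896591, + strand, GRCm38) was 32.2, 34.2 and 39.98 CPM in control and 0.188, 0.379 and 0.843 CPM in CCl4_PTH livers (log2 -6.34 ± 0.44, adjusted p = 6.93e-08), close to the CCl4 median of 0.242 CPM. Both lay wholly below control. The steroid dehydrogenase Hsd3b5 fell from 44.9, 80.8 and 159.9 to 0.0426, 0.662 and 9.02 CPM (log2 -5.41 ± 0.85, adjusted p = 0.00024, and -7.11 without CCl4_PTH 6). Fitm1, a lipid droplet protein outside the list, had the largest fall of the genes named by size (log2 -7.09 ± 1.13, adjusted p = 0.000255), from 13.3, 19.98 and 27 to 0, 0.156 and 0.355 CPM.

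Major urinary proteins, pheromone carriers that hepatocytes secrete, made up 5 of the 8 largest falls: Mup1, Mup7, Mup9, Mup12 and Mup17 changed by log2 -5.08, -5.26, -5.57, -6.36 and -6.74. Mup12 was 3282, 6667 and 7464 CPM in control and 2.04, 45.1 and 269 CPM in CCl4_PTH livers, the lowest in CCl4_PTH 1. Without CCl4_PTH 2 the differences of Mup12 and Mup17 were -7.47 and -7.59, and without CCl4_PTH 6 that of Mup7 was -6.03. These genes are near-identical copies, so reads can be split among them and the value of 1 copy is uncertain. Mup10 and Mup21 did not pass (log2 -1.52 ± 0.59, adjusted p = 0.0639, 95% interval -2.76 to -0.28, and log2 -0.65 ± 0.83, adjusted p = 0.605, interval -2.40 to 1.10), and Mup10 did pass without CCl4_PTH 1 or without CCl4_PTH 3 (edgeR adjusted p = 0.0304 and 0.0456). Mup21 reached 187 CPM in CCl4_PTH 2, above every control, and 1.15 CPM in CCl4_PTH 1; without CCl4_PTH 2 it passed (-2.34, adjusted p = 0.0175).

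Female-biased genes showed the opposite count, 9 of 22 higher and 2 lower (median log2 0.78). Ntrk2, a neurotrophin receptor, was 0.658, 1.08 and 4.99 CPM in control and 6.86, 25.8 and 32.7 CPM in CCl4_PTH livers (log2 3.50 ± 0.49, edgeR adjusted p = 7.34e-05). Some members rose in single mice. The female P450 Cyp3a41b had no control count; in CCl4_PTH livers it ranged from 0 CPM in CCl4_PTH 1 to 9.53 CPM in CCl4_PTH 2 (fitted log2 10.76, 9.39 without CCl4_PTH 2), on average at least 372-fold above the floor of 3 counts over the group. The oestrogen sulfotransferase Sult1e1, also without a control count, was 33.9 CPM in CCl4_PTH 1 and at most 1.47 CPM in the other 5. Cyp17a1, a steroid hydroxylase, was 90.6 CPM in CCl4_PTH 1 against 1.37 to 3.49 CPM in the other 5, and it did not pass without that library (adjusted p = 0.0139 with, 0.166 without).

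Some bile acid, transport and drug-metabolising genes fell, and the balance of falls and rises turned with the scaling. Of 20 bile acid synthesis genes 6 fell and 2 rose (median log2 -0.33, 0.15 with library sizes alone, where 4 rose and 3 fell). Cyp8b1, which makes cholic acid, fell from 76.3, 196 and 252 to 2.58, 10.2 and 19.5 CPM (log2 -4.05 ± 0.57, edgeR adjusted p = 8.83e-05), with no overlap and a CCl4 median of 13.2 CPM. Cyp7a1, which sets the pace of the classical route from cholesterol, did not pass (log2 0.84 ± 0.68, 95% interval -0.59 to 2.27). It ranged from 7.48 CPM in CCl4_PTH 1 to 235 CPM among treated livers, and did not pass without that library either. Of 20 transporters 7 fell and 3 rose (median -0.45, near 0 with library sizes alone, where 4 rose and 2 fell). The canalicular sterol half-transporter Abcg8 fell (log2 -1.03 ± 0.19, adjusted p = 0.000482), and the drug efflux pump Abcb1a rose (log2 1.19 ± 0.21, adjusted p = 0.000493). Of 26 xenobiotic P450 genes and their receptors 7 fell and 2 rose (median -0.18, -0.13 without CCl4_PTH 1 and 0.32 with library sizes alone, where 6 rose and 1 fell). The receptor Nr1i3 (CAR), which induces P450 genes, was the most significant of them, from 121, 277 and 342 to 47.2, 66.3 and 89.2 CPM (log2 -1.94 ± 0.33, adjusted p = 0.000306). Glucuronidation, sulfation and carboxylesterase genes had 2 of 27 lower and none higher, beside 10.3% lower over all genes (median -0.44, 0.03 with library sizes alone, where 4 rose and 1 fell). Without CCl4_PTH 1, 3 of them fell and none rose (median -0.31).

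Liver transcription factors were lower without a rise among them: 11 of 25 fell (median log2 -0.40, and 0.08 with library sizes alone, where 2 fell and 4 rose). Besides Nr1i3, the orphan receptor Esrrg fell from 1.95, 3.82 and 5.93 to 0.0312, 0.157 and 0.341 CPM (log2 -4.55 ± 0.89, edgeR adjusted p = 0.00112), all treated libraries lying below all controls. Secreted plasma proteins had 6 of 34 lower and none higher, and 3 lower without CCl4_PTH 2 (median -0.28, 0.20 with library sizes alone, where 7 rose and 0 fell). With the 12 libraries of the comparison fitted alone, 14 fell and none rose. Apolipoprotein A2 (Apoa2), a high-density lipoprotein component, changed by log2 -0.77 ± 0.19 (adjusted p = 0.0062). Alb itself did not pass (log2 -0.46 ± 0.25, 95% interval -0.99 to 0.07), but did with the 12 libraries alone (log2 -0.45, edgeR adjusted p = 0.0495). The urea cycle, gluconeogenesis and amino acid list had 3 of 30 lower and 2 higher, a share near that of all genes tested (10.3% lower). With the 12 libraries alone 7 members of this list fell and 2 rose. Its median was -0.03; without control 8 1 fell and none rose, and with library sizes alone 11 rose and 0 fell (median 0.45).

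Fatty acid oxidation was the most complete group among the falls. Of 34 genes of fatty acid oxidation and ketogenesis 31 fell and 1 rose (median log2 -0.86); 32 fell without CCl4_PTH 1 and 17 with library sizes alone, where the median was still -0.36. In CCl4 against control, which shares the controls, 29 fell, and in CCl4_PTH against CCl4 2 rose and 1 fell. Vnn1, a pantetheinase induced by the receptor PPARalpha, was 15.9, 85.7 and 109 CPM in control and 9.06, 10.3 and 15.4 CPM in CCl4_PTH livers (log2 -2.69 ± 0.35, edgeR adjusted p = 3.99e-05), without overlap. The acyl-CoA thioesterase Acot1 fell from 7.32, 58.9 and 85.4 to 3.23, 5.62 and 8.18 CPM (log2 -3.20 ± 0.47, adjusted p = 0.000116); control 1 lay within the treated range. The mitochondrial dehydrogenase Acadm, which starts medium-chain oxidation, was 167, 315 and 325 CPM in control and 123, 145 and 167 CPM in CCl4_PTH livers (log2 -0.92 ± 0.18, adjusted p = 0.00115). Ehhadh, a peroxisomal enzyme, changed by log2 -1.96 ± 0.37 (adjusted p = 0.00072).

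Controls 1 and 8 were low for several of these genes, and over the whole list the groups overlapped. The list score (mean log2 CPM) was 6.09 in control 1, 6.69 in control 8 and 7.43 to 7.53 in the other 4 controls. In CCl4_PTH livers it ran from 5.83 to 6.30, so control 1 lay within the treated range. The fatty acid hydroxylase Cyp4a10 was 38.8 CPM in control 1, 166 CPM in control 8, 1208 to 1486 CPM in the other 4 controls and 86.8 to 223 CPM in CCl4_PTH livers. Its difference was log2 -2.62 ± 0.67 (edgeR adjusted p = 0.00797), and without both controls -3.17 (adjusted p = 9.16e-05). The list had 32 members lower without them, with a median of -1.07. Pdk4, a kinase that spares glucose in fasting, was the 1 member that rose (log2 1.36 ± 0.38, adjusted p = 0.0139). The PPARalpha gene itself, Ppara, fell (log2 -0.85 ± 0.22, adjusted p = 0.00699). Lipogenesis genes had 6 of 25 lower and 1 higher (median -0.32, 0.15 with library sizes alone), and 5 lower and 8 higher without controls 1 and 8 (median -0.02). The falls numbered 3 without control 4 and 3 without control 8, where the median was -0.08. Fatty acid synthase Fasn was 508 and 1118 CPM in controls 1 and 8, 61.9 to 135 CPM in the other 4 and 185, 458 and 632 CPM in CCl4_PTH livers. Oxidative phosphorylation genes had 11 of 37 lower and none higher, 7 without control 4 and 6 without control 8 (median -0.36, 0.12 with library sizes alone, where 1 rose and 0 fell); the subunit Cox4i1 changed by log2 -0.43 ± 0.11 (adjusted p = 0.0058) and by 0.06 with library sizes alone.

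**Figure D4:**
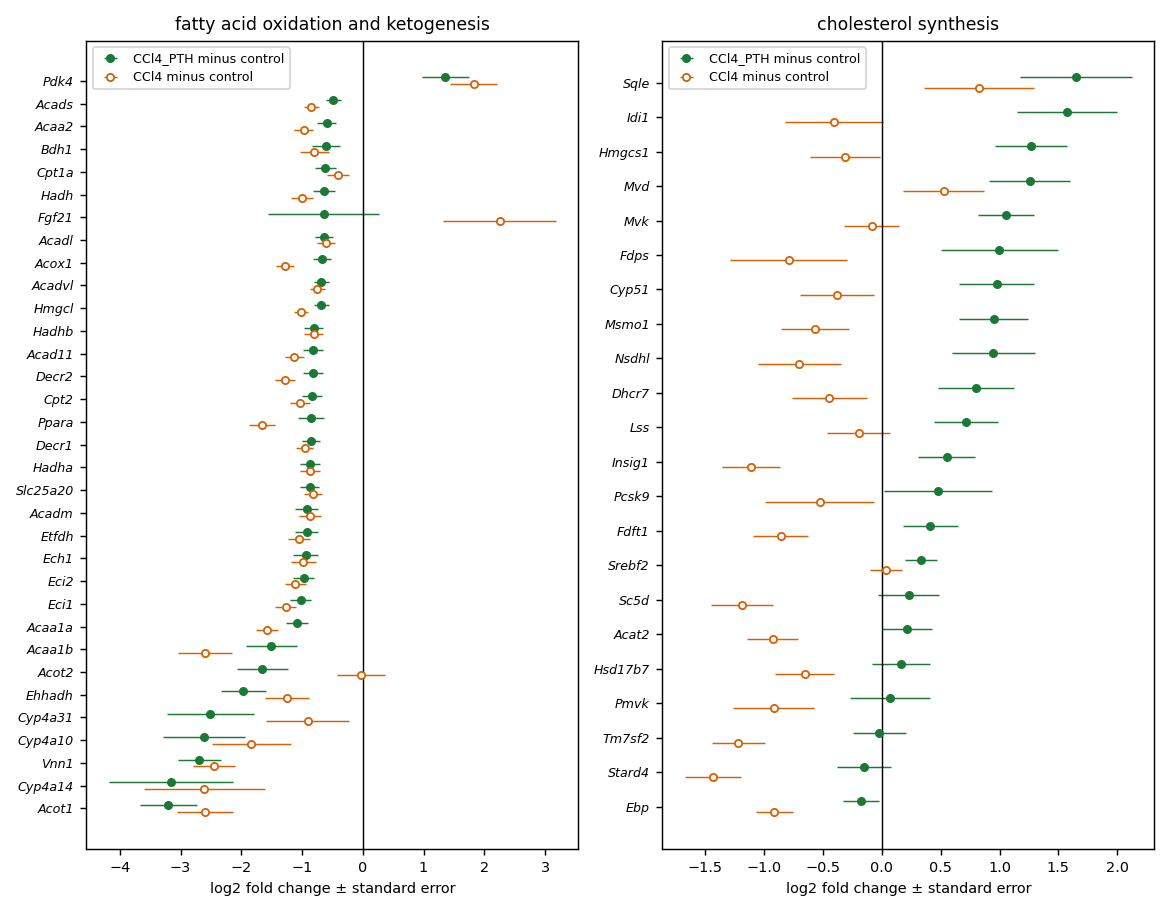
Log2 difference from control with its standard error for 33 genes of fatty acid oxidation and ketogenesis (left) and 22 of cholesterol synthesis (right), filled for CCl4_PTH and open for CCl4; both use the same 6 control libraries. In the left panel both sets lie below 0 for nearly all genes, while in the right panel the CCl4_PTH points lie to the right of the CCl4 points.

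Some cholesterol synthesis genes were above control, a direction that CCl4 alone did not show. Of 25 members 9 rose and none fell (median log2 0.72), whereas in CCl4 against control 10 fell and none rose, and in CCl4_PTH against CCl4 20 rose and none fell. The count depended on single libraries: 5 rose without CCl4_PTH 1, 14 without control 8 and 16 without controls 1 and 8. Mevalonate kinase (Mvk) was 3.63, 5.73 and 8.41 CPM in control and 8.42, 11.2 and 17.3 CPM in CCl4_PTH livers (log2 1.05 ± 0.24, edgeR adjusted p = 0.00301), the groups not overlapping, with a CCl4 median of 4.78 CPM. Hmgcs1, the synthase that opens the pathway, was 61.4, 109 and 229 CPM in control and 162, 261 and 465 CPM in CCl4_PTH livers (log2 1.27 ± 0.30, adjusted p = 0.00471), and control 8 lay within the treated range. The isomerase Idi1 changed by log2 1.57 ± 0.42 (adjusted p = 0.0109). Squalene epoxidase (Sqle) passed with all libraries (adjusted p = 0.0159) and not without CCl4_PTH 1 (adjusted p = 0.0557).

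The promoters of these genes shared a short sequence that the expression data did not use. CCAAT, or ATTGG on the other strand, lay in the 250 bases before the start of 16 of the 17 members with a RefSeq promoter, beside 39.8% of all 12746 tested genes with one, 38.8% of those that rose and 39.9% of those that fell. The motif was looked for after the expression values were seen. The exon-free stretches before Mvk (chr5:114444061-114444268, + strand), Hmgcs1 (chr13:119690101-119690350, + strand) and Mvd (chr8:122443423-122443672, - strand; build GRCm38.p6) are given. They belong to the 3 most significant of the risen members whose searched promoter has such a stretch holding a match. A match was thus a condition of the choice. Short exon-free stretches and promoters on a set-aside chromosome were also passed over. Each reads 5′ to 3′ and ends at the base before the start, with every match in capitals:
Mvk: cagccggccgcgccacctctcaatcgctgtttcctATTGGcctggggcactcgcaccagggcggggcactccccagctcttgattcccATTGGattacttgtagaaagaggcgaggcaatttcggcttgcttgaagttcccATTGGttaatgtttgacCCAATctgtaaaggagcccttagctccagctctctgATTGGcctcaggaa
Hmgcs1: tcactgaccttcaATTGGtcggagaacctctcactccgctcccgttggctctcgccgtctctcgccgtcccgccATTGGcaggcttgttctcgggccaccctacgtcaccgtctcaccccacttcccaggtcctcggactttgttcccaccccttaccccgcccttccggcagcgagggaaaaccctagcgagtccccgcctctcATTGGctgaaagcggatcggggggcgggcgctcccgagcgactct
Mvd: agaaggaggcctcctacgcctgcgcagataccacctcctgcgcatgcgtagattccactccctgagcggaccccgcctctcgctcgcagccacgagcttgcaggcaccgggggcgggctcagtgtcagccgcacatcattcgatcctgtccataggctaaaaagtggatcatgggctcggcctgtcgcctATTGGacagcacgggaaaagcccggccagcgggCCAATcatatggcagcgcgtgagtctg
They hold 5, 3 and 2 matches, the nearest beginning 14, 45 and 27 bases before the start. Cell cycle promoters held the motif in 23 of 30 genes and fatty acid oxidation promoters in 11 of 25. A match is a description of the letters and not evidence of binding. For the 6 motifs set down with the design, the shares among genes that rose, genes that fell and all genes were as follows. AP-1 sites (TGANTCA) were in 8.01% and 6.37% beside 6.21%, and STAT sites (TTCNNNGAA) in 7.42% and 7% beside 7.33%, while 7 of the 21 acute phase promoters (33.3%) held a STAT site. E-boxes (CACGTG) were in 6.75% and 10.6% beside 9.06%, and TATA boxes (TATAAA) in 10.5% and 8.89% beside 9.04%. The STAT share of acute phase promoters was not the only departure among the list and motif pairs searched, and none was tested. TATA boxes were in 13 of 23 xenobiotic P450 promoters (56.5%) and AP-1 sites in 6 of 21 acute phase promoters (28.6%). Cell cycle promoters held an AP-1 site in 0 of 30 genes. The TCF/LEF forms CTTTGAT and CTTTGAA were in 2.96% and 4.62% of the promoters of genes that rose, 3.22% and 4.76% of those that fell, and 2.96% and 4.24% of all. All motifs were searched on both strands; CACGTG reads the same on both.

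Cell division genes stayed high. Of 37 cell cycle genes 27 rose and 1 fell (median log2 1.72), the same counts without CCl4_PTH 1. Mki67, the proliferation antigen, was 1.61, 1.96 and 2.66 CPM in control and 10.9, 12 and 15.5 CPM in CCl4_PTH livers (log2 2.66 ± 0.17, edgeR adjusted p = 1.82e-08), with a CCl4 median of 19.1 CPM and a lower level than CCl4 (adjusted p = 0.0472). The mitotic kinesin Cenpe changed by log2 2.91 ± 0.21 (adjusted p = 6.93e-08) and the topoisomerase Top2a by log2 2.54 ± 0.26 (adjusted p = 2.94e-06). The repressor E2f8, which polyploid hepatocytes use, was the 1 that fell (log2 -1.81 ± 0.27, adjusted p = 9.37e-05). The replication clamp Pcna did not pass (log2 0.08 ± 0.11, adjusted p = 0.62). Of 24 p53 target and senescence genes 12 rose and 1 fell (median 0.44). The kinase inhibitor Cdkn2c led them (log2 1.94 ± 0.21, adjusted p = 4.2e-06), and Cdkn1a (p21), which stops the cycle after damage, was 26.6 CPM in CCl4_PTH 1, 1.61 to 2.99 CPM in the other 5 and 0.347, 0.492 and 0.796 CPM in control (log2 3.60, 2.08 without CCl4_PTH 1).

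The stress response counts depended on the scaling. Of 28 unfolded protein and integrated stress response genes 8 rose and 2 fell (median log2 0.29), and without CCl4_PTH 1 4 rose and 4 fell (median 0.06). With library sizes alone 18 of these 28, 19 of 30 immediate early and 14 of 31 NRF2 and glutathione genes rose. Without control 2, 4 or 5 the rises were 4, 5 and 5. Nupr1, a stress-induced chromatin protein, remained higher: 0.0781, 0.35 and 0.534 CPM in control, 1.01, 1.73 and 2.27 CPM in CCl4_PTH and a median of 11.2 CPM in CCl4 livers (log2 2.33 ± 0.29, edgeR adjusted p = 1.99e-05). Of 30 immediate early genes 10 rose and 2 fell (median 0.57), with 6 rises without controls 1 and 8; Atf3, switched on by injury, changed by log2 2.53 ± 0.41 (adjusted p = 0.000225) and had medians of 2.53 CPM in CCl4_PTH and 15.1 CPM in CCl4 livers. In the NRF2 and glutathione list 7 of 31 rose and 3 fell (median -0.01), beside 17.4% higher and 10.3% lower over all genes tested. The glutathione transferases Gstp1 and Gstp2, near-identical copies, fell (log2 -1.08 ± 0.20, adjusted p = 0.000727, and log2 -1.46 ± 0.20, adjusted p = 3.75e-05). The cystine carrier Slc7a11 rose (log2 5.20 ± 0.97, adjusted p = 0.000845; 3.60 without CCl4_PTH 1). Of the iron and metallothionein list 5 of 20 rose, 25% beside 17.4% of all genes tested, and none fell (median 0.16). Without CCl4_PTH 1 5 rose, 1 fell and the median was 0.06. The metal-binding Mt2 was 312 CPM in CCl4_PTH 1 against 1.86 to 35.7 CPM in the other 5 and 0.347 to 5.02 CPM in control (log2 4.90, 2.44 without CCl4_PTH 1).

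Fetal liver and tumour markers showed 15 of 23 higher and none lower (median log2 1.71). The transcription factor Sox4, active in progenitor cells, changed by log2 2.03 ± 0.21 (edgeR adjusted p = 3.2e-06). Gpc3, a proteoglycan used as a marker of liver cancer, was 0.0762, 0.596 and 1.46 CPM in control and 2.33, 3.42 and 6.7 CPM in CCl4_PTH livers (log2 2.45 ± 0.42, adjusted p = 0.000337), with no overlap and a CCl4 median of 5.18 CPM. Alpha-fetoprotein (Afp) changed by log2 0.90 ± 0.24 (adjusted p = 0.00973) and ranged from 2.68 to 4.57 CPM in treated livers, against at most 2.21 CPM in control. The surface protein Ly6d was 1.96, 3.11 and 8.87 CPM in CCl4_PTH livers, above the control maximum of 0.672 CPM and below the CCl4 minimum of 12.7 CPM (log2 3.32 ± 0.42, adjusted p = 2.6e-05). The imprinted RNA H19 did not pass (log2 1.74 ± 0.92, 95% interval -0.19 to 3.66), but did without control 8 (3.15, adjusted p = 0.0256).

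Bile duct genes rose in 15 of 24 members and fell in 2 (median log2 1.79). The RNA-binding protein Bicc1 was the most significant (log2 2.34 ± 0.21, edgeR adjusted p = 7.74e-07), from 4.26, 4.48 and 4.67 to 14.1, 21.2 and 34.9 CPM. Osteopontin (Spp1), secreted by duct cells and macrophages, changed by log2 2.95 ± 0.38 (adjusted p = 2.91e-05). The defining duct keratin Krt19 was 0, 0.47 and 0.985 CPM in control and 1.17, 1.24 and 2.88 CPM in CCl4_PTH livers (log2 1.73 ± 0.48, adjusted p = 0.012). Mesothelium and gall bladder markers moved with them, 9 of 12 higher and none lower (median 1.99), with 5 rises without CCl4_PTH 3; the mesothelial factor Wt1 changed by log2 2.63 ± 0.34 (adjusted p = 2.79e-05) and the mucin Muc1 by log2 2.35 ± 0.41 (adjusted p = 0.000405). Their list score ran from -1.89 to -0.48 in control and from -0.12 to 1.48 in CCl4_PTH livers, and their part in the rise of duct and matrix genes was not tested. Pancreas markers were high in control 1 alone, where the elastase Cela1 was 15.1 CPM beside 3.35 to 4.69 CPM in controls 2 to 5. Of 7 fat markers 2 rose and 2 fell, the fall including complement factor D (Cfd, log2 -5.43 ± 0.84, adjusted p = 0.000162), and 2 skeletal muscle and 10 blood markers gave 0 and 2 rises with no fall.

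Endothelial genes rose in part. Of 21 vascular and capillarised endothelium genes 9 rose and none fell (median log2 0.53), and of 21 sinusoidal genes 6 rose and none fell (median 0.09, 0.16 without CCl4_PTH 1 and 0.05 without CCl4_PTH 2). The shares higher were 42.9% and 28.6%, beside 17.4% and a median of 0.04 over all genes tested. With library sizes alone 17 and 18 rose, and the difference between the 2 lists was not tested. Cd34, a mark of sinusoids that have lost their pores, was 0.552, 0.882 and 1.63 CPM in control and 2.88, 4.81 and 7.24 CPM in CCl4_PTH livers (log2 2.40 ± 0.29, edgeR adjusted p = 1.41e-05). The endothelin receptor Ednrb changed by log2 1.83 ± 0.21 (adjusted p = 9.07e-06). Wnt9b, a Wnt ligand of central vein endothelium, rose (log2 1.69 ± 0.28, adjusted p = 0.00021), and Kdr, the VEGF receptor of sinusoids, did not pass (log2 -0.25 ± 0.16, adjusted p = 0.279). Kdr was lowest in CCl4_PTH 1 (log2 CPM 4.69, beside 5.92 to 6.23 in the rest of its group) and did not pass without that library either. The circadian list had 3 of 20 lower and 1 higher, and 5 lower without control 1 or without CCl4_PTH 1 (median -0.33, 0.13 with library sizes alone); the clock repressor Bhlhe41 fell (log2 -1.67 ± 0.24, adjusted p = 7.31e-05). The circadian share lower was 15%, beside 10.3% over all genes tested. Lysosome genes had 11 of 30 higher and 3 lower (median 0.26), led by the macrophage protease Ctss (log2 2.26 ± 0.32, adjusted p = 7.14e-05), and annexin and S100 genes 9 of 20 higher and 2 lower (median 0.81), led by Anxa1 (log2 2.64 ± 0.29, adjusted p = 5.89e-06). Complement and coagulation genes had 13 of 32 higher and 2 lower (median 0.41, 0.22 without CCl4_PTH 1), led by the anaphylatoxin receptor C3ar1 (log2 1.82 ± 0.18, adjusted p = 2.45e-06).

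A few genes passed here but not in CCl4 against control, with every CCl4_PTH library beyond all 12 others. The anthrax toxin receptor Antxr2, a collagen VI receptor, was 14.4, 18.9 and 22.5 CPM in control, 26.8, 29.6 and 32.9 CPM in CCl4_PTH and at most 24.6 CPM in CCl4 livers (log2 0.68 ± 0.10, edgeR adjusted p = 0.000116; against CCl4 adjusted p = 0.0117). Btbd8 rose likewise (log2 0.71 ± 0.17, adjusted p = 0.00379; against CCl4 adjusted p = 0.00791). On the lower side stood Alpl, tissue alkaline phosphatase (log2 -0.61 ± 0.14, adjusted p = 0.00271), and 3 small differences: the translation factor subunits Eif3g (log2 -0.40 ± 0.09) and Eif3d (log2 -0.27 ± 0.07) and the chromatin reader Brd2 (log2 -0.28 ± 0.08), which with library sizes alone became 0.09, 0.21 and 0.19.

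Other genes lay close to their CCl4 level. Those within 0.2 of the CCl4 level on the log2 scale with the largest change were Lox, Col1a1, Saa3 and Col3a1 among the rises and Cd163, Chrna2, Pex11a and Tox among the falls. Some of these places rest on 1 library: without CCl4_PTH 1 the differences of Lox, Col1a1 and Cd163 went from 4.65, 4.52 and -2.34 to 3.23, 4.13 and -2.78, and without CCl4_PTH 3 that of Saa3 from 3.60 to 3.01. Pex11a, a peroxisome division protein, was 38.7, 71.9 and 86.8 CPM in control, 17.3, 17.6 and 29.98 CPM in CCl4_PTH and at a median of 20.2 CPM in CCl4 livers (log2 -1.79 ± 0.18, edgeR adjusted p = 2.84e-06). The receptor subunit Chrna2 changed by log2 -1.86 ± 0.35 (adjusted p = 0.00077) and the nuclear factor Tox by log2 -1.71 ± 0.32 (adjusted p = 0.000756). The transmembrane genes Lrtm2 and Igdcc4 and the chitinase-like Chil3, a product of alternatively activated macrophages, were the remaining largest rises. Lrtm2 was 2.95, 7.51 and 10.5 CPM in CCl4_PTH livers and at most 0.127 CPM in control (log2 7.98 ± 0.73, adjusted p = 1.47e-06). Igdcc4 and Chil3 were highest in CCl4_PTH 1 (44.2 and 45.7 CPM, at most 1.48 and 2.7 CPM in the other 5), and their differences of 5.98 and 7.66 became 2.66 and 4.47 without it. Without control 1 the difference of Lrtm2 was 12.33, without control 3 that of Chil3 9.63.

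Some large CCl4 changes were not called here. The transcription factor Bhlha15 (Mist1), known from secretory cells, had medians of 0.235, 0.451 and 5.92 CPM in control, CCl4_PTH and CCl4 livers, and its difference from control was log2 0.80 ± 0.51 (95% interval -0.27 to 1.87). The squamous protein Sprr1a had no control count, at most 0.221 CPM in CCl4_PTH and a median of 6.59 CPM in CCl4 livers. The receptor Vmn2r3 had a treated maximum of 0.241 CPM and a CCl4 minimum of 2.75 CPM, and its difference from control was log2 2.15 ± 1.001 (95% interval 0.05 to 4.25); it did pass without control 1, the 1 control with a count (6.37, edgeR adjusted p = 0.0247). The nitric oxide synthase Nos2 had an interval of -0.69 to 5.89. The bile acid sulfotransferase Sult2a8 was 296, 384 and 466 CPM in control and 2.01, 188 and 231 CPM in CCl4_PTH livers, the lowest in CCl4_PTH 1, and did not pass although the groups did not overlap (log2 -1.22 ± 0.64, adjusted p = 0.172, interval -2.58 to 0.14). The receptor gene Vmn1r90 behaved alike (log2 -0.88 ± 0.53, interval -2.01 to 0.24). Missing the threshold does not show that these genes were at the control level.

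Among 2763 genes tested that the GENCODE annotation classes as long noncoding, 264 rose and 128 fell, smaller shares than over all genes tested (17.4% higher and 10.3% lower). Rian and Mirg, transcripts of the imprinted Dlk1-Dio3 region that host small RNAs, were among the 4 largest rises. Rian was 0.171, 0.563 and 0.809 CPM in control, 1.59, 6.23 and 13.7 CPM in CCl4_PTH and at a median of 1.17 CPM in CCl4 livers (log2 3.55 ± 0.59, edgeR adjusted p = 0.000303), and it was above CCl4 too (adjusted p = 0.0218). Mirg changed by log2 3.39 ± 0.68 (adjusted p = 0.00116, and 4.22 without control 5), with no overlap. Zfp469 and Gm36161 were the other 2 (log2 4.49 ± 0.59 and log2 4.08 ± 0.69). Zfp469 bears the name of a zinc finger protein gene and stands here by its annotated class alone. Whether its RNA is noncoding was not tested. The largest falls were Gm13775 (log2 -7.43 ± 0.61), Gm35696 (log2 -4.66 ± 0.70), Gm15401 (log2 -3.84 ± 0.67) and Gm12473 (log2 -3.49 ± 0.74). Without CCl4_PTH 6 the first 2 were -8.28 and -5.45. Gm13775 shares exons with the urinary protein pseudogene Mup-ps16, and no source used here says whether counting used strand, so reads of overlapping genes cannot be told apart. The largest falls in CPM outside the urinary proteins were Lars2, mt-Rnr1, Rn7s1 and Rn7s2, a tRNA synthetase gene and 3 structural RNAs. Rn7s1 did not pass without control 4 (adjusted p = 0.0509), nor did Rn7s2 without control 4, control 5 or CCl4_PTH 2 (0.0522 to 0.0553). Lars2 went from 29116, 67094 and 74421 to 25349, 33243 and 39771 CPM with control 1 inside the treated range (log2 -0.88 ± 0.24, adjusted p = 0.0113). Its control median lay above the highest albumin value of control. Whether the reads counted for Lars2 come from the tRNA synthetase mRNA was not tested, and it was not among the ribosomal RNA loci removed in the alternative fit. The share of ribosomal RNA, 46.3% in control and 37.7% in CCl4_PTH livers on average, moved in the same direction. The locus mt-Rnr1 is itself counted in that share, so its fall is not a separate observation. For Lars2, Rn7s1 and Rn7s2 the part of that share was not tested.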

How the data were processed

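RNA of whole liver was sequenced after ribosomal RNA removal, as total RNA libraries read in pairs, per the labels' protocols. The authors deposited 1 table of estimated counts per gene for 18 libraries, in which all values are whole numbers. Tools listed in the submitters' processing notes are cutadapt 4.2, FastQC 0.11.9, Bowtie2 2.5.1, HISAT2 2.2.1, StringTie 2.1.5, with the build GRCm38. The counting step, its strand setting and its treatment of reads with several matches are not given in the sources used here, so genes that share exons or are near-identical copies are uncertain.

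Of 54752 genes, 18164 were at 0 in all libraries and 21840 passed edgeR's filter (minimum count 10). One edgeR 4.0.16 quasi-likelihood model with TMM factors was fitted to the 3 groups in R 4.3.3, and p-values were adjusted by Benjamini-Hochberg over all genes tested. CPM are TMM-normalised, and log2 CPM use a prior count of 2. Values are given as log2 difference ± standard error. A set of 3 values gives the lowest, median and highest of 6 libraries. Library measures were compared with exact permutation tests (SciPy 1.17.1). The mice are separate animals.

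Values of a few single genes are not reported here, though they count in their lists. The comparison, its gene lists and the motifs were chosen with earlier results of these data known. Genes were named by a fixed rule: the 8 largest non-overlapping log2 changes per direction with at least 5 CPM, the 6 largest CPM differences, the 4 largest noncoding changes with at least 1 CPM, the 2 smallest p in each list, the 4 genes beyond both other groups, the 4 within 0.2 of CCl4, the 4 largest CCl4 changes not called here, and 13 followed genes. The genes beyond both other groups were sought among called protein-coding genes with a plain symbol and at least 5 CPM in the highest group. Only 2 of those lay above both. Further genes were named after their values were seen. Alternatives comprised RLE factors, library sizes only, removal of 357 ribosomal RNA loci, other filters, DESeq2 1.42.0, voom with quality weights (limma 3.58.1), a 1.5-fold threshold, thinning to equal depth, a replicate block, the 12 libraries alone, each library left out and controls 1 and 8 left out. Simulated counts for 21360 genes gave 76 of 100 changes of 2-fold and 98 of 100 of 4-fold called, with 4 of 178 calls false. They were drawn independently around means over all 18 libraries, without an outlying library. The changed genes averaged at least 1 CPM, as many raised as lowered. The real data had far more calls, mostly rises, and many genes near 0 in control, so these rates need not hold for them. Over 45 pairs of libraries within groups the lowest chi-square per gene was 51.8, so no library was counted as a repeat of another. Promoters are 250 bases before the start from RefSeq tables of GRCm38.p6, matched by symbol for 12746 of 21830 tested symbols.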

Additional observations from a re-analysis of the deposited data

Results flagged for a closer look

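A library was singled out where its gap to the nearest of the other 5 in its group took more of the group's range than Dixon's critical value allows. This held for 57 of 484 groups tested. Of the 484, 380 were groups of named genes, many of them chosen from these same data and some at the floor, so no chance rate is set beside the count. Of the 57, 39 lay in CCl4_PTH 1 and 9 in control 1, and the values below are log2 CPM or, for a list, the mean log2 CPM of its genes.

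In CCl4_PTH 1 the scores of neutrophil 3.63, acute phase 9.73 and unfolded protein and integrated stress response 5.14 were above the other 5. The scores of pericentral hepatocyte 4.03, xenobiotic P450 5.14, glucuronidation, sulfation and carboxylesterases 4.62 and pancreas markers -2.66 were below them. Among genes, this library stood above the other 5 for C4b 11.17, Ccl7 1.39, Cd28 2.83, Cdkn1a 4.73, Cp 11.85, Cyp17a1 6.50, Fn1 11.90, Hp 13.34, Hpx 13.18, Igdcc4 5.47, Lcn2 10.53, Lyve1 4.88, Orm1 11.73, Pex11a 4.91, S100a8 5.85, Saa2 9.99, Serpina3n 11.67 and Slc7a11 3.65. It stood below them for Cd3e -2.25, Cdh1 4.62, Cela1 0.18, Cela2a -5.49, Cyp7a1 2.91, Kdr 4.69, Lpl 5.44, Mup1 1.14, Mup10 4.21, Ntrk2 2.78, Slc39a4 3.62, Sult2a8 1.02, Ugt2b34 6.87 and Vmn1r90 -1.76.

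Control 1 stood apart for the mitochondrial oxidative phosphorylation score (6.46). It was above the other controls for Cela1 3.92, Lrtm2 -2.74, Timp1 -3.86 and Vmn2r3 -2.86 and below them for Apoa2 10.09, Lars2 14.83, Rn7s1 11.15 and Rn7s2 11.14.

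The remaining cases were Adgre1 in control 5 (3.77), Atf3 in CCl4_PTH 7 (0.14), Clec4e in control 3 (-2.84), Grem1 in CCl4_PTH 3 (-0.79), Krt19 in control 2 (-5.49), Mmp7 in control 5 (-3.58), Phlda3 in control 3 (-3.63), Saa3 in CCl4_PTH 3 (5.38) and Sprr1a in CCl4_PTH 8 (-2.04). Several of these genes had 0 or few counts in control, where a single count sets a library apart.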

How the results depend on the processing

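With library sizes in place of TMM factors 9559 genes were higher and 353 lower, 96.4% of calls higher against 62.8%, and with a 1.5-fold threshold (glmTreat) 1793 and 317; the fewer calls of the latter follow from its stricter null. Leaving out each library in turn gave 3235 to 3847 higher and 1933 to 2586 lower. DESeq2, voom with quality weights, RLE factors, both other filters, removal of ribosomal RNA, thinning and the 12 libraries alone kept both counts within 1.5 times. With library sizes alone the small falls of Brd2 (0.19), Cox4i1 (0.064), Eif3d (0.21), Eif3g (0.0936) and Ugt2b34 (0.00946) changed sign, since most genes moved up under that scaling.

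Replicate numbers are shared by 4 pairs of treated and control libraries. Same-numbered pairs had correlations of -0.02 to 0.08 and different-numbered pairs of -0.08 to 0.09. Only 1 library correlated best with its own number. With 4 such pairs, these values cannot settle whether the numbers pair the animals. The replicate block, which draws its difference from those 4 pairs alone, gave 1969 genes higher and 929 lower. Of the 6051 calls of the main fit, 5680 had a value there and 2697 were still called.

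Of 190 genes named by the rule or after their values were seen, 168 passed and 109 kept call and direction under each alternative that gave them a value, 102 of them under all 24; 15 changed call when 1 library was left out. Treated livers had more counts per library, and genes near 0 in control have folds that rest on few counts.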
